A study of Mus musculus with 12 samples.

Results

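The genes described here drive and carry out mitosis: the kinases that start it and check it, the cyclin and ubiquitin switches that time it, the kinesin motors, the proteins of the centromere and kinetochore, the spindle and cytokinesis proteins, and 3 proteins that shape the mitotic chromosome. They were taken from a list of 40 mouse symbols. Of these, 39 were found among the 18193 genes that the array annotation names, each read by the probe set with the highest mean level over the 12 arrays; cyclin B1, Ccnb1, was not listed in that annotation and is not analysed here. All 39 passed the filter on low levels, for which 2 or more arrays had to reach a log2 level of 5, and which left 15781 genes tested.

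The arrays measured total RNA of 2 bipotential mouse embryonic liver (BMEL) lines, 9A1 and 14B3, which are able to form both hepatocytes and bile duct cells. The lines were isolated independently from wild-type embryonic liver at day 14 post coitum, from a cross of CBA/J with C57Bl/6J, so each is a single isolate and stands for no wider population. Each line was sampled in basal culture, after 1 day as aggregates and after 5 days as aggregates, with 2 biological replicates per group, 12 arrays in all. No drug, transgene or deletion is named for any group, and each line's basal culture is the control for its own aggregates.

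A cell that divides makes most mitotic proteins anew in each cycle: their genes are switched on in late S and G2 phase, and many of the proteins are destroyed by the anaphase-promoting complex as the cell leaves mitosis. The RNA of such genes is therefore high in cycling cells and low in cells that have left the cycle, which is why they are used as markers of proliferation. In embryonic liver, hepatoblasts divide rapidly, and mature hepatocytes are mostly quiescent. Many mitotic promoters carry a CCAAT box, bound by NF-Y, and a cell cycle homology region, bound by the MuvB complex, which acts with B-MYB and FOXM1 as an activator and with p107 or p130 as a repressor.

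The promoters of 4 of the members with the largest falls from basal culture to day 5 are shown because the group moved together and these letters are shared by many of its promoters. Each runs from 250 bases before to 50 bases after the transcription start of the RefSeq gene model on GRCm38.p6, on the strand of the gene. Capitals mark CCAAT, the E2F motif given after the sequences (not present in these 4) and TTTGAA or TTCGAA, the core of the cell cycle homology region, on either strand.
Bub1, chr2:127831810-127832109, minus strand: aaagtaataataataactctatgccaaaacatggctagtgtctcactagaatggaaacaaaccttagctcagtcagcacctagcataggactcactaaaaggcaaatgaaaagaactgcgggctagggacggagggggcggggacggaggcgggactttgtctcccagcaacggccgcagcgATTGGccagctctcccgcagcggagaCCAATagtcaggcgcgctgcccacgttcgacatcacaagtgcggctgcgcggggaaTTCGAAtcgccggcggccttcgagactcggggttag
Ube2c, chr2:164769679-164769978, plus strand: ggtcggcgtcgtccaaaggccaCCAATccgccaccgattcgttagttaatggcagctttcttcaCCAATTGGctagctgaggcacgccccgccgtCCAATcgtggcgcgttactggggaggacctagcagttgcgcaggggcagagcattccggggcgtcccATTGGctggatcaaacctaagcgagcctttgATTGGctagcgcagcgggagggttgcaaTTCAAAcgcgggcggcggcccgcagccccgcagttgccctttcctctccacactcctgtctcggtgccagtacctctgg
Anln, chr9:22389157-22389456, minus strand: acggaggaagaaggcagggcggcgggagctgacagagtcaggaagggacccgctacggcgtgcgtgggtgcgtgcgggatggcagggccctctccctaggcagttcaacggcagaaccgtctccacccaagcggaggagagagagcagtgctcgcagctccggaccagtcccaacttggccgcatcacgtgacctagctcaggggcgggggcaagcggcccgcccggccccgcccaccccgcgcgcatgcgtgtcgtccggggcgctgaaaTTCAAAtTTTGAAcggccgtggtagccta
Top2a, chr11:99024140-99024439, minus strand: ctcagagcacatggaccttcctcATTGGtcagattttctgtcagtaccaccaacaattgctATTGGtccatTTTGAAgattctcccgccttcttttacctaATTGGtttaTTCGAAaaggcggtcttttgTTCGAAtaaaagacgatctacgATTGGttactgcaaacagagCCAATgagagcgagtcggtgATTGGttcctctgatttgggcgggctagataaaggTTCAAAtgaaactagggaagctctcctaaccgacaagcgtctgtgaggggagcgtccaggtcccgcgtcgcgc
Counted from the start site, with the first transcribed base as 1, Bub1 held CCAAT at -42 on the plus strand and at -68 on the minus strand, and TTCGAA, which is its own complement, at 15. Ube2c held 6 CCAAT matches, among them an overlapping pair of opposite strand at -186 and -183, and TTTGAA on the minus strand at -29. Anln held no CCAAT in this window and a pair of TTTGAA matches at 22 and 29. Top2a held 6 CCAAT matches and 4 of the cell cycle homology region, at -179, -140, -120 and -23.

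In the same RefSeq table, 34 promoters belonged to 32 of the 39 members. CCAAT was present in 24 of these 34 (70.6%), against 37.4% of all 32851 promoters of the same length. TTTGAA or TTCGAA was present in 26 (76.5%), against 19.2% of all promoters, and both motifs together in 23 (67.6%), against 7.52%. An E2F motif, spelled TTCCCGC or TTCGCGC or TTGCCGC or TTGGCGC on either strand, was present in 7 (20.6%), against 9.57% of all. In 37 promoters of 31 genes of DNA replication, which peak earlier in the cycle, the shares were 59.5% for CCAAT, 16.2% for the cell cycle homology region and 64.9% for the E2F motif. These are matches of letters, given as a description with no test.

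Of 12 genes of fetal liver and bipotential progenitors, the keratins Krt8, Krt18 and Krt19 and the liver factor Hnf4a kept log2 levels of at least 10.98 on all 12 arrays, while Dlk1 and Prom1 stayed between 4.37 and 7.31. At day 5, 3 of the 12 were called lower than in basal culture (Foxa1, Foxa2 and Krt18), where 18.5% of all genes were. Hnf4a and Epcam, 2 of the 12, were called higher, where 16.9% of all genes were. Epcam ran from 6.86 to 7.48 on 3 basal arrays, 12.63 on the fourth and 12.88 to 13.24 at day 5. The defining markers Ptprc (blood cells) and Pecam1 (endothelial cells) were near the bottom of the scale. Some other genes of these lists were not: the endothelial gene Egfl7 ran from 8.29 to 9.22 and the blood cell gene Cd68 from 5.85 to 8.13. On the first basal replicate of 9A1 the endothelial genes Cdh5 and Vwf were at 7.65 and 7.25, where other arrays reached at most 5.65 and 4.99. Csf1r, a macrophage gene, ran from 7.65 to 12.02, and Vim, a stromal and culture gene, from 12.60 to 13.98. Over all arrays the mean level ran from 5.81 to 6.39 for 10 blood cell genes, from 5.12 to 5.71 for 10 endothelial genes and from 6.17 to 6.70 for 12 stromal genes. Over 18 hepatocyte genes, of which 13 were called higher at day 5 than in basal culture (16.9% of all genes), it was 6.95 to 7.16 at day 1 and 9.31 to 10.78 at day 5. Over 13 genes of absorptive gut epithelium, of which 1, Apoa4, is also on the hepatocyte list, 11 were called higher at day 5, and the mean was 8.02 to 9.01 at day 1 and 11.04 to 11.47 at day 5. The first basal replicate of 9A1 stood apart, with a hepatocyte mean of 8.97 where the other 3 basal arrays had 5.92 to 6.17, and a mean of 10.21 over the gut genes where the others had 6.55 to 7.25. The second day 1 replicate of 9A1 had the narrowest spread of levels (SD 2.13 over all probe sets) and the highest level of chemosensory receptor probe sets, used below as a background, and replicate pairs differed more in 9A1 (SD of the difference over genes 0.90, 0.78 and 0.40 in basal culture, at day 1 and at day 5) than in 14B3 (0.25, 0.30 and 0.20). The part of these arrays in the results was not tested beyond leaving them out.

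With the lines averaged, all 39 genes were called lower at day 1 than in basal culture (8.8% of all genes). At day 5 against day 1, 28 of 39 were called lower (10% of all genes), and all 39 differences were below 0. In each line by itself all 39 were called lower at day 5 than in basal culture (8.54% of all genes in 9A1 and 14.1% in 14B3). Fewer members were called in the single steps. Averaged over the 39, the log2 level was 9.43 and 10.54 on the basal arrays of 9A1 and 10.59 and 10.44 on those of 14B3. At day 1 it was 7.75 and 7.94 in 9A1 and 8.37 and 8.13 in 14B3, and at day 5 it was 6.74 and 5.91 in 9A1 and 7.15 and 6.93 in 14B3. The 3 cultures did not overlap in this mean, and within basal culture the first 9A1 replicate was the lowest for 39 of 39 genes. Beside that low value stood the high hepatocyte genes of the same array. RNA was taken from whole cultures, so fewer dividing cells and less mitotic RNA per cell cannot be told apart.

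**Figure D1:**
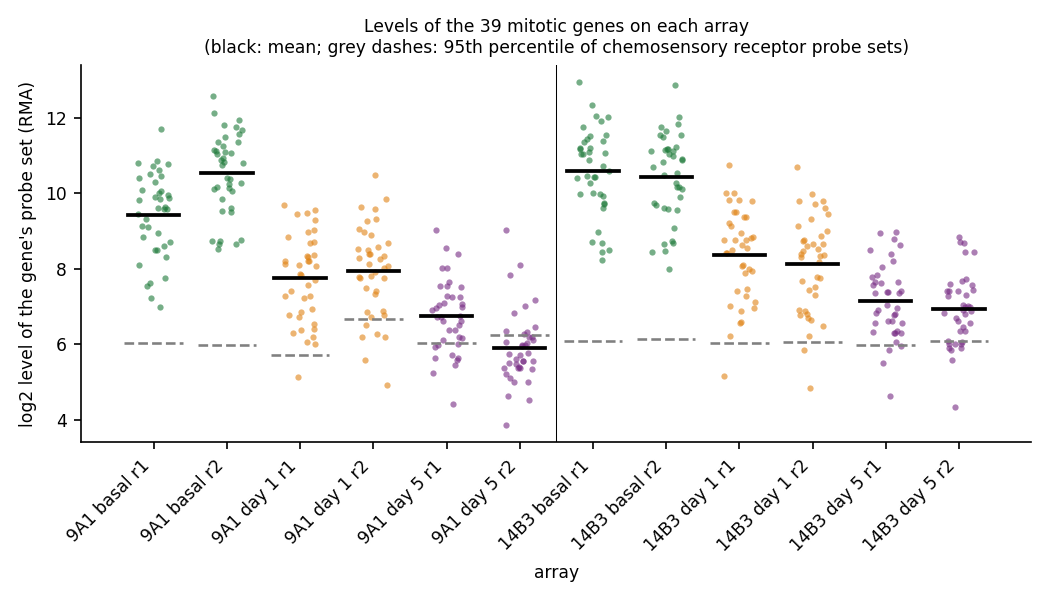
Log2 RMA level (vertical axis) of the 39 mitotic genes on each of the 12 arrays (horizontal axis, by line, culture and replicate); each point is 1 gene, black bars are the mean over the genes and grey dashes the 95th percentile of 83 chemosensory receptor probe sets on that array. The means run from 9.43 to 10.59 in basal culture, from 7.75 to 8.37 at day 1 and from 5.91 to 7.15 at day 5, where many genes lie near the receptor level.

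With both lines averaged, limma called 39 of 39 genes lower at day 1 than in basal culture at a Benjamini-Hochberg adjusted p under 0.05, where 8.8% of all genes tested were called lower. The median difference was -2.16 on the log2 scale, against 0.03 over all genes tested. From day 1 to day 5, 28 of 39 were called lower, where 10% of all genes were, with a median of -1.34 against -0.04. Over the whole course to day 5, 39 of 39 were called lower, where 18.5% of all genes were, with a median of -3.61 against 0.01. No member was called higher in any of the 3 comparisons, where 5.25%, 11.7% and 16.9% of all genes were. Comparisons that share a culture share its arrays, so the 3 sets of values are not independent of each other.

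The order of single arrays shows the same steps without a model. In 38 of 39 genes both basal arrays of 9A1 were above both day 1 arrays, and these above both day 5 arrays; 3.59% of all genes had that order. In 14B3 it held for 39 of 39, against 13.9% of all genes, and in both lines at once for 38, against 2.78%. The exception was Kif2c in 9A1. Across lines, all 4 basal arrays were above all 4 day 5 arrays in 39 genes (20.3% of all genes), all 4 basal above all 4 day 1 arrays in 37 (8.9%), and all 4 day 1 above all 4 day 5 arrays in 35 (12.1%).

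**Figure D2:**
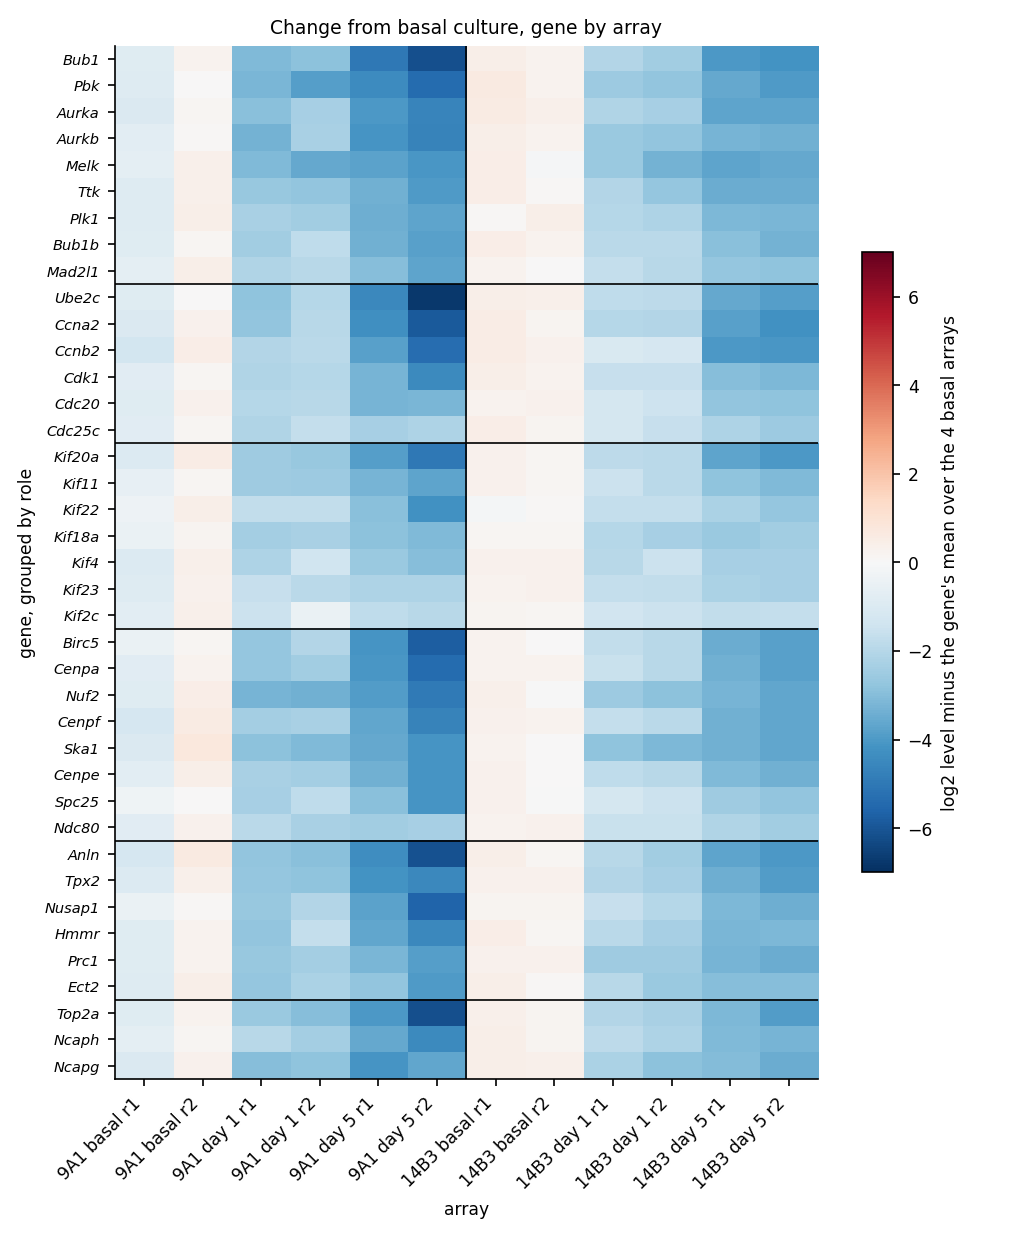
Change of each of the 39 genes (rows, grouped by role) on each array (columns), as the log2 level minus the gene's mean over the 4 basal arrays; blue is lower and red higher. The first basal replicate of 9A1 is below the other 3 basal arrays, day 1 arrays are lower, and day 5 arrays are lowest, the second day 5 replicate of 9A1 most of all.

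The kinases and checkpoint proteins make up 9 of the genes: the aurora kinases Aurka and Aurkb, Plk1, the checkpoint genes Bub1, Bub1b and Ttk, the checkpoint protein Mad2l1, and the kinases Pbk and Melk. All 9 were called lower at day 1 and at day 5 (8.8% and 18.5% of all genes). At day 5 against day 1, 8 of 9 were called lower (10%). Bub1, which marks unattached kinetochores and holds back anaphase, had log2 levels of 9.81 and 10.89 (9A1) and 11.04 and 10.88 (14B3) in basal culture, 7.57 and 7.77 (9A1) and 8.62 and 8.19 (14B3) at day 1, and 5.63 and 4.52 (9A1) and 6.61 and 6.45 (14B3) at day 5. Its groups did not overlap, and the drop went on after day 1. It fell by 2.62 (SE 0.29, adjusted p = 0.000849) to day 1 and by a further 2.23 (SE 0.29, adjusted p = 0.00122) to day 5, in all by 4.85 (SE 0.29, adjusted p = 2.97e-05), the largest measured fall of the 39. Both day 5 levels of 9A1 lay under the background of chemosensory receptor probe sets on their arrays (6.04 and 6.26), which limits the size of this fall, and both of 14B3 lay above it.

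Pbk, a kinase active in mitosis, had log2 levels of 10.45 and 11.37 (9A1) and 12.03 and 11.64 (14B3) in basal culture, 8.20 and 7.50 (9A1) and 8.81 and 8.61 (14B3) at day 1, and 6.98 and 6.00 (9A1) and 7.78 and 7.42 (14B3) at day 5. Most of its fall lay before day 1: 3.09 (SE 0.29, adjusted p = 0.000433) by day 1, then 1.24 (SE 0.29, adjusted p = 0.0156). Without the first day 1 replicate of 14B3, the second day 5 replicate of 9A1 or the second day 5 replicate of 14B3, its second step was no longer called, at adjusted p = 0.0627, 0.061 and 0.0655. Mad2l1, whose protein sequesters the anaphase activator CDC20 while kinetochores are unattached, fell least of the kinases and checkpoint proteins. Its log2 levels were 10.85 and 11.94 (9A1) and 11.75 and 11.56 (14B3) in basal culture, 9.44 and 9.59 (9A1) and 9.83 and 9.60 (14B3) at day 1, and 8.56 and 7.84 (9A1) and 8.80 and 8.71 (14B3) at day 5. The fall was 1.91 (SE 0.25, adjusted p = 0.00179) by day 1 and 1.14 (SE 0.25, adjusted p = 0.0112) after it, and day 5 levels stayed above those of the chemosensory receptor background on every array. Without the first day 1 replicate of 14B3 the second step of Mad2l1 had an adjusted p of 0.0508.

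Melk, a kinase of proliferating cells, had log2 levels of 8.50 and 9.51 (9A1) and 9.62 and 9.09 (14B3) in basal culture, 6.06 and 5.59 (9A1) and 6.60 and 5.86 (14B3) at day 1, and 5.45 and 5.10 (9A1) and 5.50 and 5.59 (14B3) at day 5. It was under the receptor background on 2 of the 4 day 1 arrays and on all 4 day 5 arrays, so a further fall after day 1 could not be measured in full. By day 1 it had fallen by 3.15 (SE 0.27, adjusted p = 0.000388), the largest first step of the 39, and the further difference of -0.62 to day 5 was not called (SE 0.27, limma adjusted p = 0.145). Of the other 5, Aurka fell by 4.01, Aurkb by 3.85, Ttk by 3.56, Plk1 by 3.36 and Bub1b by 3.34 from basal culture to day 5, and their first steps ranged from 1.98 for Bub1b to 2.74 for Aurkb.

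Cyclins, CDK1 and the proteins of the anaphase switch had the lowest median share of their fall before day 1 of the 6 roles. Cdk1 is the kinase of mitotic entry, Ccna2 and Ccnb2 are its partners and Cdc25c is its activating phosphatase. Cdc20 is the activator and Ube2c the E2 enzyme of the anaphase-promoting complex. All 6 were called lower at day 1 and at day 5 (8.8% and 18.5% of all genes). At day 5 against day 1, 5 of 6 were called lower (10%). Ube2c, which passes ubiquitin to the targets of that complex, had log2 levels of 11.69 and 12.57 (9A1) and 12.94 and 12.87 (14B3) in basal culture, 9.70 and 10.50 (9A1) and 10.76 and 10.70 (14B3) at day 1, and 8.01 and 5.76 (9A1) and 8.95 and 8.68 (14B3) at day 5. The second day 5 replicate of 9A1 was far below the first, and no culture overlapped another. Ube2c fell by 2.11 (SE 0.44, adjusted p = 0.0137) by day 1 and by 2.56 (SE 0.44, adjusted p = 0.00382) afterwards. The first step lost its call without the first basal replicate of 14B3 (adjusted p = 0.0598), its first day 1 replicate (0.052) or its second (0.0619).

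Ccna2, cyclin A2, which acts from S phase into mitosis, had log2 levels of 10.79 and 12.13 (9A1) and 12.35 and 12.01 (14B3) in basal culture, 9.04 and 9.86 (9A1) and 9.83 and 9.79 (14B3) at day 1, and 7.55 and 5.95 (9A1) and 8.05 and 7.59 (14B3) at day 5. A first step of 2.19 (SE 0.40, adjusted p = 0.00774) was followed by a second of 2.34 (SE 0.40, adjusted p = 0.00378). Ccnb2, cyclin B2, had the smallest share before day 1 of the 39: 37.5% of its log2 fall was reached by day 1 in 9A1 and 34.1% in 14B3, with a first step of 1.54 and a second of 2.77. Cdk1 fell by 1.83 and then by 1.63, and Cdc20 by 1.67 and then by 1.34. Cdc25c fell least, with log2 levels of 7.75 and 8.66 (9A1) and 8.98 and 8.69 (14B3) in basal culture, 6.41 and 6.87 (9A1) and 7.28 and 6.89 (14B3) at day 1, and 6.20 and 6.34 (9A1) and 6.34 and 6.01 (14B3) at day 5. Its first step was 1.66 (SE 0.22, adjusted p = 0.00226), and the second difference, -0.64 (SE 0.22), was not called (adjusted p = 0.0751). Without either basal replicate of 9A1 that second step of Cdc25c became a call at the same difference, through the spread that all groups share. It was -0.75 without the first day 1 replicate of 9A1.

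Of the 7 kinesin motors, Kif11 slides spindle poles apart, Kif23 and Kif20a act in the central spindle, Kif4 and Kif22 move chromosome arms, Kif18a damps chromosome movement and Kif2c takes microtubules apart at centromeres. All 7 were called lower at day 1 and at day 5 (8.8% and 18.5% of all genes). At day 5 against day 1, 3 of 7, Kif20a, Kif11 and Kif22, were called lower (10%). Kif20a fell most, with log2 levels of 9.63 and 11.13 (9A1) and 10.90 and 10.71 (14B3) in basal culture, 8.08 and 7.92 (9A1) and 8.76 and 8.73 (14B3) at day 1, and 6.72 and 5.60 (9A1) and 6.90 and 6.57 (14B3) at day 5. Its cultures did not overlap, and the fall came in nearly equal steps of 2.22 (SE 0.34, adjusted p = 0.00349) and 1.92 (SE 0.34, adjusted p = 0.00437). Kif11 had log2 levels of 8.83 and 9.54 (9A1) and 9.72 and 9.58 (14B3) in basal culture, 6.94 and 6.88 (9A1) and 7.90 and 7.53 (14B3) at day 1, and 6.16 and 5.75 (9A1) and 6.58 and 6.35 (14B3) at day 5. It fell by 2.11 (SE 0.19, adjusted p = 0.000424) and then by 1.10 (SE 0.19, adjusted p = 0.00419), with one of the smallest standard errors among the 39.

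The other 4 motors showed little further measured fall after day 1. Kif23 had log2 levels of 10.30 and 11.51 (9A1) and 11.45 and 11.49 (14B3) in basal culture, 9.55 and 9.27 (9A1) and 9.52 and 9.45 (14B3) at day 1, and 9.04 and 9.03 (9A1) and 8.99 and 8.84 (14B3) at day 5. Its day 5 arrays kept levels of 8.84 to 9.04, and the second difference, -0.48 (SE 0.23), had an adjusted p of 0.189. Kif4, with log2 levels of 7.22 and 8.53 (9A1) and 8.45 and 8.48 (14B3) in basal culture, 6.01 and 6.79 (9A1) and 6.23 and 6.65 (14B3) at day 1, and 5.59 and 5.20 (9A1) and 5.84 and 5.84 (14B3) at day 5, changed by -0.80 after day 1 (SE 0.29, adjusted p = 0.0815). Kif18a, with 8.11 and 8.74 (9A1) and 8.70 and 8.66 (14B3) in basal culture, 6.19 and 6.27 (9A1) and 6.56 and 6.23 (14B3) at day 1, and 5.71 and 5.49 (9A1) and 5.95 and 6.10 (14B3) at day 5, changed by -0.50 (SE 0.17, adjusted p = 0.0609). Each of the 3 had a clear first step, 1.74, 1.75 and 2.24 in that order. All 3 second steps were called when either basal replicate of 9A1 was left out, at the same differences, through the spread that all groups share. That of Kif4 was -0.997 without the first day 1 replicate of 9A1. Kif4 was under the receptor background on every day 5 array, and Kif18a on all but the second of 14B3. Their further fall could not be measured in full.

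Kif2c fell least of all 39, with log2 levels of 7.55 and 8.66 (9A1) and 8.49 and 8.44 (14B3) in basal culture, 6.79 and 7.82 (9A1) and 6.96 and 6.77 (14B3) at day 1, and 6.51 and 6.32 (9A1) and 6.55 and 6.63 (14B3) at day 5. The second day 1 replicate of 9A1, at 7.82, lay above the first basal replicate of that line, at 7.55, the single break in the order of arrays. Kif2c fell by 1.20 (SE 0.28, adjusted p = 0.0215) by day 1, and the second difference was -0.58 (SE 0.28, adjusted p = 0.188), or -0.32 without the second day 1 replicate of 9A1 and -0.84, a call at adjusted p = 0.0391, without the first. The first step lost its call without any 1 of the 4 arrays of 14B3 in basal culture and at day 1 (adjusted p from 0.0644 to 0.0894). The choice of probe set set this rank. The probe set used here fell by 1.78 from basal culture to day 5, and 2 others of Kif2c fell by 4.02 and 3.20, while another, near the background, differed by 0.01. On the probe set with the largest fall, log2 levels ran from 8.46 to 9.90 in basal culture, from 6.32 to 7.29 at day 1 and from 5.21 to 5.70 at day 5, and the second step was called.

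The centromere and kinetochore genes number 8. Cenpa is the histone that marks the centromere, Ndc80, Nuf2 and Spc25 belong to the complex that grips microtubules, Ska1 strengthens that grip, Cenpe is a motor and Cenpf a large coat protein of the kinetochore, and Birc5, survivin, targets aurora B to the centromere. All 8 were called lower at day 1 and at day 5 (8.8% and 18.5% of all genes). At day 5 against day 1, 5 of 8 were called lower (10%). Birc5 fell most, with log2 levels of 10.61 and 11.25 (9A1) and 11.36 and 11.14 (14B3) in basal culture, 8.36 and 9.05 (9A1) and 9.38 and 9.13 (14B3) at day 1, and 6.97 and 5.35 (9A1) and 7.63 and 7.27 (14B3) at day 5. The steps were 2.11 (SE 0.34, adjusted p = 0.00453) and 2.18 (SE 0.34, adjusted p = 0.0026), and no array of one culture reached the levels of the next. Cenpa had log2 levels of 10.01 and 11.05 (9A1) and 11.07 and 11.05 (14B3) in basal culture, 8.10 and 8.38 (9A1) and 9.23 and 8.86 (14B3) at day 1, and 6.74 and 5.40 (9A1) and 7.41 and 6.99 (14B3) at day 5. It fell by 2.16 (SE 0.32, adjusted p = 0.00325) and by 2.01 (SE 0.32, adjusted p = 0.00293).

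Ndc80 fell least among the 8, with log2 levels of 7.63 and 8.73 (9A1) and 8.69 and 8.74 (14B3) in basal culture, 6.54 and 6.19 (9A1) and 6.88 and 6.90 (14B3) at day 1, and 6.00 and 6.10 (9A1) and 6.35 and 6.01 (14B3) at day 5. After a first step of 1.82 (SE 0.23, adjusted p = 0.00148) the day 5 arrays lay between 6.00 and 6.35 and the second difference, -0.51 (SE 0.23), was not called (adjusted p = 0.152). Its partner Nuf2 had log2 levels of 8.72 and 10.05 (9A1) and 9.92 and 9.56 (14B3) in basal culture, 6.30 and 6.20 (9A1) and 7.01 and 6.69 (14B3) at day 1, and 5.64 and 4.64 (9A1) and 6.29 and 5.91 (14B3) at day 5, with a first step of 3.02 (SE 0.31, adjusted p = 0.000664) and a second difference of -0.93 (SE 0.31, adjusted p = 0.0653). Ska1 had log2 levels of 6.99 and 8.76 (9A1) and 8.22 and 8.0003 (14B3) in basal culture, 5.13 and 4.91 (9A1) and 5.16 and 4.83 (14B3) at day 1, and 4.43 and 3.86 (9A1) and 4.64 and 4.34 (14B3) at day 5. It was the 1 member whose day 5 mean was under 5. Its first step was 2.98 (SE 0.33, limma adjusted p = 0.000845), and its second difference, -0.69 (SE 0.33), had an adjusted p of 0.19. Ska1 was already under the receptor background on every day 1 array, so a further fall could not be measured in full. The second steps of Ndc80, Nuf2 and Ska1 were all called without either basal replicate of 9A1, at the same differences, through the spread that all groups share. That of Nuf2 was -1.18 without the first day 5 replicate of 9A1. Ndc80 and Nuf2 were under the receptor background on all day 5 arrays but the first of 14B3. Spc25, the third member of the microtubule-gripping complex listed here, fell by 1.71 and by 1.36, Cenpe by 2.09 and 1.40, and Cenpf by 2.04 and 1.78, with both steps of each called.

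Spindle assembly and cytokinesis are represented by 6 genes: Tpx2, which activates aurora A on the spindle, the microtubule-binding Nusap1 and Hmmr, the midzone bundler Prc1, the cleavage furrow scaffold Anln and the RhoA exchange factor Ect2. All 6 were called lower at day 1 and at day 5 (8.8% and 18.5% of all genes). At day 5 against day 1, 5 of 6 were called lower (10%). Anln had log2 levels of 9.91 and 11.69 (9A1) and 11.51 and 11.23 (14B3) in basal culture, 8.34 and 8.13 (9A1) and 9.13 and 8.66 (14B3) at day 1, and 6.71 and 5.01 (9A1) and 7.40 and 7.04 (14B3) at day 5. It fell by 2.52 (SE 0.44, adjusted p = 0.0065) and by 2.03 (SE 0.44, adjusted p = 0.0112), and the replicates of 9A1 differed widely in basal culture and at day 5. Without the first day 1 replicate of 14B3 its second step had an adjusted p of 0.0503. Tpx2 had log2 levels of 9.86 and 11.15 (9A1) and 11.09 and 11.13 (14B3) in basal culture, 8.12 and 8.02 (9A1) and 8.78 and 8.48 (14B3) at day 1, and 6.61 and 6.28 (9A1) and 7.38 and 6.88 (14B3) at day 5. Its steps were 2.46 (SE 0.27, adjusted p = 0.000793) and 1.56 (SE 0.27, adjusted p = 0.00388).

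Ect2 fell least of these 6, with log2 levels of 9.10 and 10.42 (9A1) and 10.41 and 10.11 (14B3) in basal culture, 7.28 and 7.77 (9A1) and 8.08 and 7.43 (14B3) at day 1, and 7.28 and 6.03 (9A1) and 7.03 and 7.03 (14B3) at day 5. The first day 5 replicate of 9A1 was at the level of the lower day 1 array of that line, and the second was far below. After a first step of 2.37 (SE 0.35, adjusted p = 0.00325) the second difference, -0.80 (SE 0.35), was not called (adjusted p = 0.148), and it was -0.49 without the second day 5 replicate of 9A1. Nusap1 fell by 3.98 in all, Hmmr by 3.63 and Prc1 by 3.45.

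Chromosome structure is represented by Top2a, the topoisomerase that untangles sister chromatids, and by Ncapg and Ncaph, subunits of condensin I. All 3 were called lower at day 1 and at day 5 (8.8% and 18.5% of all genes). At day 5 against day 1, 2 of 3 were called lower (10%). Top2a had log2 levels of 10.73 and 11.82 (9A1) and 11.92 and 11.76 (14B3) in basal culture, 8.97 and 8.57 (9A1) and 9.50 and 9.31 (14B3) at day 1, and 7.54 and 5.38 (9A1) and 8.39 and 7.67 (14B3) at day 5. The second day 5 replicate of 9A1 lay more than 2 log2 units under the other 3 day 5 arrays. Top2a fell by 2.47 (SE 0.44, adjusted p = 0.00717) and by 1.84 (SE 0.44, adjusted p = 0.0167), and the second step lost its call without the first or second day 1 replicate of 14B3 or its second day 5 replicate (adjusted p = 0.0636, 0.0548 and 0.0693). Ncaph had log2 levels of 9.97 and 10.80 (9A1) and 11.05 and 10.84 (14B3) in basal culture, 8.71 and 8.26 (9A1) and 8.83 and 8.51 (14B3) at day 1, and 7.07 and 6.19 (9A1) and 7.57 and 7.41 (14B3) at day 5, with steps of 2.09 (SE 0.25, adjusted p = 0.00119) and 1.52 (SE 0.25, adjusted p = 0.00337). Ncapg had log2 levels of 8.31 and 9.63 (9A1) and 9.75 and 9.70 (14B3) in basal culture, 6.38 and 6.50 (9A1) and 7.13 and 6.49 (14B3) at day 1, and 5.23 and 5.72 (9A1) and 6.29 and 5.89 (14B3) at day 5. Its first step was 2.72 (SE 0.29, adjusted p = 0.000702). The second difference, -0.84 (SE 0.29), was not called with all arrays (limma adjusted p = 0.0674). It was called without either basal replicate of 9A1, at the same difference, through the spread that all groups share. Ncapg was under the receptor background on all day 5 arrays but the first of 14B3. Its values also depend on the probe set. On another probe set of Ncapg the day 5 minus basal difference was -4.42, against -3.56 on the one used. The second difference on that other probe set, -1.41, was called (limma adjusted p = 0.00571).

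**Figure D3:**
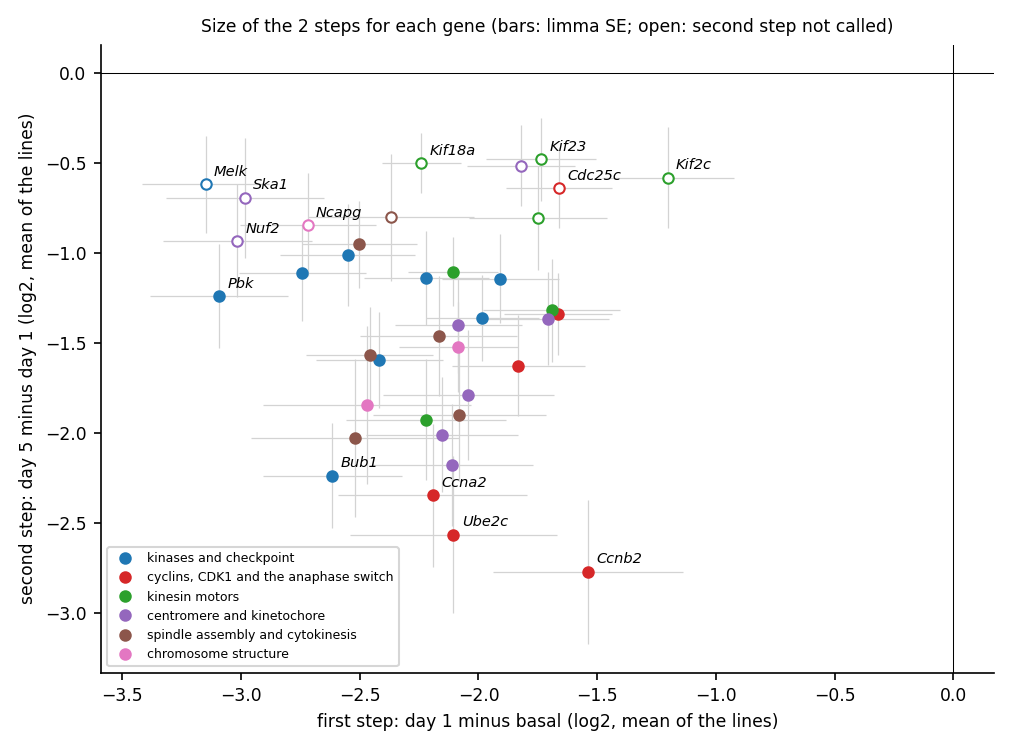
Size of the first step, day 1 minus basal culture (horizontal axis, log2), against the second, day 5 minus day 1 (vertical axis, log2), for the 39 genes, as means of the 2 lines with limma standard errors; colours give the role and open points the 11 genes whose second step was not called. All points lie below 0 on both axes, with Melk, Pbk and Nuf2 at the largest first steps and Ccnb2, Ube2c and Ccna2 at the largest second steps.

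The first step was the larger one for most genes. On the log2 scale, the median share of the fall to day 5 that was reached by day 1 was 57.8% in 9A1 and 65.8% in 14B3, and it passed 50% for 31 and 38 of the 39 genes. The cyclins, CDK1 and the anaphase switch had medians of 45.8% and 53.8%, and the kinases and checkpoint proteins 60.9% and 68.2%. The kinesins had 59.5% and 77.1%. In the 35 DNA replication genes lower at day 5, the medians were 77.9% and 81.5%, with 33 and 35 genes past 50%. These shares are descriptions without a test, and a level that has reached the background of the array by day 1 cannot fall further on this scale. At day 5, 10 and 29 members were at or under the receptor background in 9A1 and 4 and 9 in 14B3. For such members the measured second step is limited, which can raise the share reached by day 1. For 9A1 the basal mean includes its low first replicate, at 9.43 over the 39 genes against 10.54 on the second. A low basal mean makes the share smaller for a gene that fell again after day 1.

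**Figure D4:**
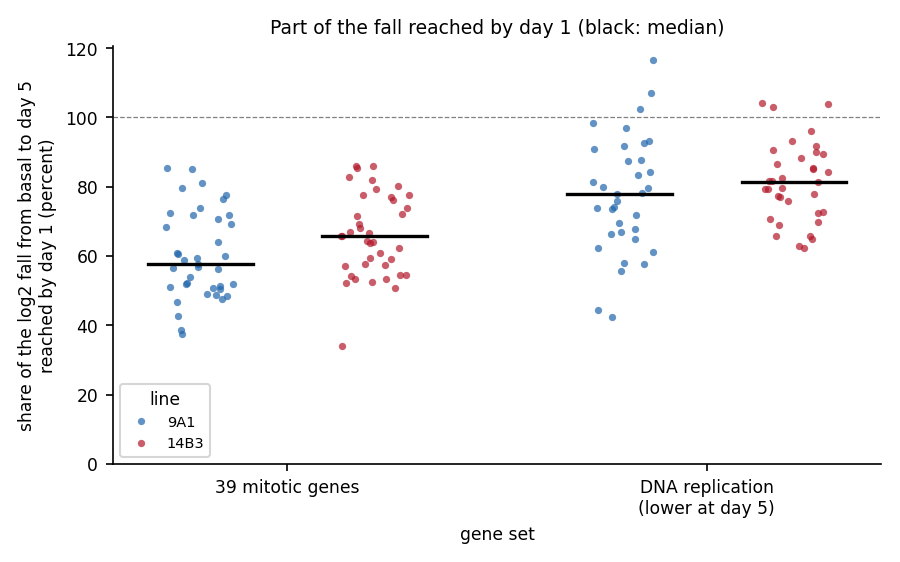
Share of the log2 fall from basal culture to day 5 that was reached by day 1 (vertical axis, percent) for the 39 mitotic genes and for the 35 DNA replication genes called lower at day 5 (horizontal axis), with 1 point per gene and line and black bars at the medians. The medians are 57.8% and 65.8% for the mitotic genes of 9A1 and 14B3, and 77.9% and 81.5% for the replication genes. The basal mean of 9A1 includes its low first replicate.

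Within 9A1 alone, 24 of 39 genes were called lower at day 1 than in basal culture (1.53% of all genes), 22 of 39 lower at day 5 than at day 1 (3.76%), and 39 of 39 lower at day 5 than in basal culture (8.54%). The medians were -2.17, -1.46 and -3.72. All 39 differences were below 0 in each of the 3. In the first step 9 of 9 kinases and checkpoint genes were called, 2 of 6 cyclin and anaphase genes and 3 of 7 kinesins. The count of 24 changed when 1 array was left out, whether of 9A1 or of 14B3. Arrays of 14B3 take no part in the differences within 9A1, and act on these calls only through the spread that all 6 groups share. The count of 22 was 1 without the second day 5 replicate of 9A1, 2 without its second day 1 replicate, and 6 to 12 without any 1 array of 14B3, and both counts were 0 when only the 6 arrays of 9A1 were fitted.

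Within 14B3 alone, 37 of 39 were called lower at day 1 (5.17% of all genes), 8 of 39 lower at day 5 than at day 1 (3.14%) and 39 of 39 lower at day 5 than in basal culture (14.1%). The medians were -2.23, -1.18 and -3.62, and all 39 differences were again below 0. The fit gives all 6 groups a single shared spread, 9A1 pairs included. With only the 6 arrays of 14B3 fitted, 39, 35 and 39 genes were called. The count of 37 fell to between 1 and 13 without any 1 of the 4 arrays of 14B3 in basal culture and at day 1. The count of 8 became 23 without either basal replicate of 9A1, and 0 or 1 without any 1 array of 14B3.

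The responses of the lines were compared directly. No member was called in the difference of responses at day 1 (0% of all genes called in either direction), between day 1 and day 5 (0.038%) or at day 5 (0.038%), and 0 of 39 had an unadjusted p under 0.05 in any of the 3. The largest differences in the response at day 5, in 9A1 minus 14B3, were -1.199 for Kif22 (SE 0.58) and 0.73 for Cdc25c (SE 0.45), and errors of this size leave room for differences of more than 2-fold in single genes. Between the lines within a culture, 9A1 was lower in 38 of 39 genes in basal culture, where 57.9% of all genes were. It was lower in 37 of 39 at day 1 (54.7% of all genes) and in 37 of 39 at day 5 (52.5%). The medians were -0.56, -0.43 and -0.62. In basal culture the mean over the 39 was low only on the first replicate of 9A1, at 9.43. The second had 10.54, and 14B3 had 10.59 and 10.44. No member was called by limma in these comparisons (0.019%, 0% and 0.247% of all genes called in either direction), with unadjusted p under 0.05 for 1, 1 and 11 members. Without the second basal replicate of 9A1, 10 members were called between the lines in basal culture, and 1 in the response at day 1 and 1 in that at day 5, and without the first day 5 replicate of 9A1, 1 was called at day 5.

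Residual levels at day 5 were uneven between the replicates of 9A1. Taken back from the log2 scale, the median member kept 10.02% and 5.78% of the line's basal mean on the arrays of 9A1, and 9.19% and 7.89% on those of 14B3. The basal mean of 9A1 includes its low first replicate, which raises the percentages of that line. In log2 level, the mean over the members was 6.74 and 5.91 in 9A1, under the 7.15 and 6.93 of 14B3. Ube2c, Top2a, Bub1 and Anln had the lowest remainders, 1.21%, 1.68%, 1.76% and 1.81%, all on the second day 5 replicate of 9A1, where the 4 lay under the receptor background; on the first they kept 5.75%, 7.49%, 3.796% and 5.88%. That array was the lowest of the 4 day 5 arrays for 34 of 39 genes. At the other end, Kif2c kept between 26.6% and 33.04% on the 4 arrays, Kif23 between 16.1% and 27.4%, and Cdc25c between 14.1% and 27.4%. The day 5 levels of Cdc25c, 6.01 to 6.34, and of Kif2c, 6.32 to 6.63, were near the receptor background, 5.99 to 6.26 on these arrays. That background limits how low these 2 remainders could go. The remainders of Kif2c and Kif23 depend on the probe set. On other probe sets the log2 fall to day 5 was up to 4.02 for Kif2c, against 1.78, and 2.95 for Kif23, against 2.21. Another of Kif2c, near the background, differed by 0.01.

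**Figure D5:**
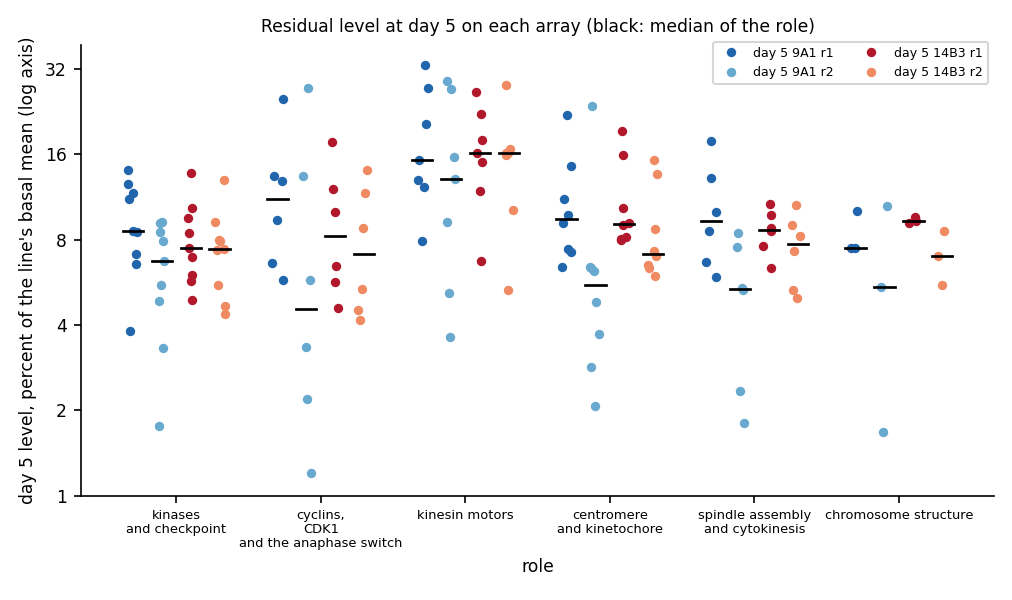
Level at day 5 as a percent of the basal mean of the same line (vertical axis, log scale) for the 39 genes on each of the 4 day 5 arrays, grouped by role (horizontal axis), with black bars at the median of the role on each array. The medians over all genes are 10.02% and 5.78% on the arrays of 9A1 and 9.19% and 7.89% on those of 14B3. The basal mean of 9A1 includes its low first replicate. On the probe sets used, the kinesins keep the highest medians.

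How much of the residual level is RNA cannot be read from the values alone. As a scale for background, 83 probe sets of olfactory, vomeronasal and bitter taste receptor genes, which liver cells should lack, were summarised by their 95th percentile on each array, which lay between 5.72 and 6.67. No member was at or under that level on any basal array. At day 1, 1 and 6 members were at or under it in 9A1 and 1 and 2 in 14B3, the 6 on the array with the highest receptor level. At day 5 there were 10 and 29 in 9A1 and 4 and 9 in 14B3. Folds of members that reach this level are limited by the background of the array.

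Most members have more than 1 probe set, and the others were tested in the same way. Of 42 further probe sets of 26 members, 36 passed the filter, of which 25 were lower at day 1, 29 at day 5 and 15 at day 5 against day 1, with 0 higher in each. For 7 members another probe set fell more than the one used, by over 1 on the log2 scale for Kif2c and Cdc20. The probe set used for Cdc20 fell by 3.003, and another fell by 4.39, with 5.20 on the second day 5 replicate of 9A1 and 7.16 to 7.82 on the other 3 day 5 arrays. Kif23 also fell more on another probe set, by 2.95 against 2.21, and so did Ncapg, by 4.42 against 3.56.

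The other genes of mitosis, in 6 lists with the same roles, were counted beside the members. Of 125 tested, 77 were lower and 2 higher at day 1 (8.8% and 5.25% of all genes), and 94 lower and 3 higher at day 5 (18.5% and 16.9%). At day 5 against day 1, 34 were lower and 3 higher (10% and 11.7%). The medians were -1.29, -1.83 and -0.45. At day 5 the counts of lower genes were 15 of 18 further kinase and checkpoint genes, 13 of 23 of entry and exit, 3 of 9 kinesins, 26 of 29 of the centromere and kinetochore, 22 of 28 of the spindle and cytokinesis, and 15 of 18 of chromosome structure. The entry and exit list holds many subunits of the anaphase-promoting complex, and the kinesin list holds motors of transport.

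The leading genes of these lists, by size of fall, were as follows. The checkpoint ATPase Trip13 fell by 4.41 (SE 0.31, adjusted p = 3.32e-05) from basal culture to day 5 and Plk4, which starts centriole duplication, by 3.88 (SE 0.32, adjusted p = 6.41e-05). Fbxo5, an inhibitor of the anaphase-promoting complex, fell by 3.12, and cyclin F, Ccnf, by 2.92. Kif20b and Kif18b fell by 3.76 and 2.50, the cohesin protector Sgo2a and the centromere protein Cenph by 3.77 and 3.53, and the cytokinesis genes Cep55 and Racgap1 by 4.44 and 4.04. Esco2, a cohesin acetyltransferase, fell by 4.25 and the proliferation marker Mki67 by 4.15. Mki67 had log2 levels of 10.51 and 11.91 (9A1) and 11.19 and 11.19 (14B3) in basal culture, 9.14 and 7.91 (9A1) and 9.60 and 9.38 (14B3) at day 1, and 7.38 and 5.60 (9A1) and 8.03 and 7.19 (14B3) at day 5. The steps of Mki67 were 2.19 (SE 0.46, adjusted p = 0.0152) and 1.96 (SE 0.46, adjusted p = 0.0165), and both calls depended on single arrays. The first lost its call without any 1 of the 4 arrays of 14B3 in basal culture and at day 1, at differences from -2.25 to -2.14. The second lost its call without either day 1 replicate of 14B3 (-1.90 and -2.01) or its second day 5 replicate (-1.75). It also did so without the second day 5 replicate of 9A1 (-1.51).

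The genes of these lists called higher at day 5 were Ensa, Kif1b and Zwint. Ensa, an inhibitor of the phosphatase that opposes CDK1, rose by 0.52 (SE 0.11, adjusted p = 0.00583). Kif1b, a motor of organelle transport, rose by 1.08 (SE 0.18, adjusted p = 0.0017), with a difference of 1.14 already at day 1. Zwint, a kinetochore protein, rose by 0.29 (SE 0.09, adjusted p = 0.0342) on the probe set with the highest mean and differed by -0.31 on the mean of its probe sets, which was not called. The rise of Zwint also lost its call without any 1 of 8 arrays (adjusted p from 0.0598 to 0.146). At day 5 against day 1 the 3 called higher were Ensa, Cdc25a and Gas2l3; the last 2 were named after their values were seen, and Ensa lost that call without any 1 of 5 arrays (adjusted p from 0.0611 to 0.0821).

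Regulators that act on such promoters were counted as a further list. Of 24 genes of MuvB, B-MYB, FOXM1, the pocket proteins, the E2F family and NF-Y, 11 were lower and 0 higher at day 1 (8.8% and 5.25% of all genes), and 13 lower and 3 higher at day 5 (18.5% and 16.9%). E2f7, a repressor of the E2F family, fell by 3.25 (SE 0.30, adjusted p = 0.000432) by day 1, with a further difference of -0.28 (adjusted p = 0.606). Mybl2, B-MYB itself, had log2 levels of 7.14 and 8.42 (9A1) and 9.02 and 8.74 (14B3) in basal culture, 5.96 and 6.17 (9A1) and 5.89 and 6.30 (14B3) at day 1, and 5.73 and 5.55 (9A1) and 5.91 and 5.85 (14B3) at day 5. It fell by 2.25 (SE 0.25, adjusted p = 0.000913) by day 1, and the difference after that was -0.32 (adjusted p = 0.449). Mybl2 was under the receptor background on the second day 1 replicate of 9A1, the first of 14B3 and every day 5 array. Its further fall could not be measured in full. The 3 higher at day 5 were Rbl2, Rb1 and Lin37, the last 2 named after their values were seen. Rbl2, which encodes p130, rose by 1.08 (SE 0.28, adjusted p = 0.0133), from 7.97 to 8.83 in basal culture to 9.35 to 9.65 at day 5, and differed by 0.42 at day 1 (adjusted p = 0.403) or by 0.80, a call, without the second day 1 replicate of 9A1 and by 0.042 without the first (adjusted p = 0.774).

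DNA replication genes fell too. Of 37 tested, 36 were lower at day 1 (8.8% of all genes), 35 at day 5 (18.5%) and 8 at day 5 against day 1 (10%). In the last, 1 was higher, Pcna (11.7% of all genes). The medians were -2.06, -2.63 and -0.46. Rrm2, a subunit of ribonucleotide reductase, fell by 4.73 (SE 0.51, adjusted p = 0.00022) in all and Mcm5, a helicase subunit, by 4.28 (SE 0.40, adjusted p = 0.000113). Whether the mitotic genes differ from the replication genes in the timing of the fall was not tested.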

How the data were processed

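Total RNA of 12 cultures was hybridised to Affymetrix mouse 430 2.0 arrays. The deposited values are log2 levels per probe set. Per the submitters' processing notes, the authors used R 2.3.1 and RMA. The levels were used as given. Scanner files and detection calls were not used here. Of 45101 probe sets, 34945 had 1 gene in the platform annotation, 932 several and 9160 none, and 64 were controls. For a gene with several probe sets, the highest mean level decided which was read. Levels of single genes are set against no other gene, except the receptor probe sets used as a background.

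A model of 6 group means was fitted to all 15781 genes with limma 3.58.1 in R 4.3.3 (lmFit, then eBayes with a variance trend), and p-values were adjusted by Benjamini and Hochberg over all genes in each comparison. Differences are log2, later minus earlier culture, with the mean of the lines where both are taken. The number of arrays limits the precision, with 6 residual degrees of freedom. On simulated data for 15781 genes, 65% of 2-fold and 95% of 4-fold changes were recovered at day 1 in both lines. The shares were 25% and 76% at day 1 in 9A1, and 7% and 40% in the difference of responses at day 5. The simulation changed 200 genes and gave each gene 1 spread in all 6 groups. In the data, replicate pairs differed more in 9A1 (SD 0.90, 0.78 and 0.40) than in 14B3 (0.25, 0.30 and 0.20). These shares therefore do not carry over to a single line or to the difference of responses.

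The members and lists were chosen with earlier results of these data known. Per role, the 2 members with the largest and the 1 with the smallest fall to day 5, and every member that missed a call in a comparison of both lines, are given array by array. Per list, the 2 largest falls and the largest rise are named. Promoters came from a RefSeq table (GRCm38.p6), and those of Ccna2, Tpx2, Ska1, Kif20a, Pbk, Aurkb and Cdc25c are named only.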

Additional observations from a re-analysis of the deposited data

Results flagged for a closer look

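In basal culture, the first replicate of 9A1 stood far below the other 3 basal arrays. Its mean log2 level was 9.43 over all 39 genes, 9.57 over the kinases and checkpoint genes, 10.17 over the cyclins, CDK1 and anaphase genes, 8.82 over the kinesins, 9.76 over the spindle and cytokinesis genes and 9.67 over the chromosome structure genes. In each of these 6 means the gap to the next array was more of the range than Dixon's 95% critical value for 4 samples allows. There were 21 such tests, over the 4 arrays of each culture with the lines pooled, and chance flags about 1 in 20. The 6 means share the same array, so they are not separate findings.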

How the results depend on the processing

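The fall from basal culture to day 5 was called for 39 of 39 genes in both lines with any 1 array left out, and for 37 to 39 in 9A1 and 38 to 39 in 14B3. Leaving out 1 array gave 36 to 39 for both lines at day 1 and 19 to 36 at day 5 against day 1. In 9A1 it gave 4 to 37 at day 1 and 1 to 32 in the second step, and in 14B3 1 to 39 and 0 to 23. Between the lines it gave 0 to 10 in basal culture, 0 at day 1 and 0 to 1 at day 5, and in the responses 0 to 1 at day 1, 0 in the second step and 0 to 1 at day 5. For the first and second steps, fitting only the line compared gave 0 and 0 in 9A1 and 35 for the second in 14B3. Array weights gave 0 and 0 in 9A1, 31 for the second in 14B3, and 3 between the lines at day 5. Calling a gene only where every probe set was called gave 14 for the second step in both lines, 15 and 8 in 9A1, and 2 in 14B3. An adjusted p under 0.01 gave 18 for the second step in both lines, 3 and 1 in 9A1, and 17 and 0 in 14B3. The mean of probe sets and quantile normalisation each gave 5 for the second step in 14B3. Without the first basal and second day 1 replicates of 9A1, the first step of 9A1 was called for 39, the second of 14B3 for 30, and the lines differed in 1 gene at day 1 and 2 at day 5. With the second day 5 replicate of 9A1 left out too, a choice made after seeing the data, these were 39, 35, 12 and 3, with 1 in the second-step difference of responses. Replicate numbers were not taken as pairs, since no label says that a number marks a shared batch and their deviations correlated from -0.30 to 0.50 over 9 pairs of groups, above 0.1 in 3; a replicate block gave 8 and 4 for the steps of 9A1 and 0 for the second of 14B3. Under the mean of probe sets Zwint turned to -0.24 at day 1 and -0.31 at day 5, and in the second step, not called, it ran from -0.091 to 0.012 and Kif1b from -0.27 to 0.16 with 1 array left out. The causes of these changes were not tested. Levels near the background of the array limit the folds at day 5.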
